A study of Mus musculus with 5 samples.

Results

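The serine and one-carbon genes described here are the 10 genes *Phgdh*, *Psat1*, *Psph*, *Shmt1*, *Shmt2*, *Mthfd1*, *Mthfd1l*, *Mthfd2*, *Aldh1l2* and *Cbs*, chosen by name from among 19505 named genes on the arrays. All 10 had a probe set and each had only 1. The RNA of 3T3-L1 cells was read on 5 arrays of the Clariom S Mouse type, and 3T3-L1 is a mouse preadipocyte line that turns into lipid-storing adipocytes in culture. At confluence the preadipocytes of the MM.1S group (3 arrays, called MM-3T3-L1s) shared RPMI-1640 medium with 10% serum for 48 h with human myeloma cells of the line MM.1S across a transwell membrane with pores of 0.4 µm, and those of the control group (2 arrays) were kept in the same medium alone. The myeloma cells were then removed, and both groups went through 7 days of differentiation, with IBMX, dexamethasone and insulin for 4 days, insulin for 2 days and growth medium for 1 day. The model is therefore 1 mouse cell line exposed to the soluble products of 1 human line, read a week after the exposure had ended. Nothing in the labels ties the replicates to separate cultures, and the spread behind each p-value may be technical.

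Serine is made from the glycolytic intermediate 3-phosphoglycerate in a short chain of reactions catalysed by the products of *Phgdh*, *Psat1* and *Psph*. The serine hydroxymethyltransferases then split serine into glycine and a one-carbon unit carried by tetrahydrofolate. One set of folate enzymes handles this unit in the cytosol and a parallel set in mitochondria, from which it leaves as formate or is burned to CO2 with the gain of NADPH. The units feed the synthesis of purines and thymidylate and the remethylation of homocysteine, and *Cbs* draws on serine to turn homocysteine towards cysteine. The folate enzymes are also known as a source of NADPH, and how much of it serves fatty acid synthesis in these cells was not measured.

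The deposited values are log2 signals normalized by the authors, with array medians of 4.47 to 4.53 and correlations between arrays of 0.985 to 0.993. The adipocyte markers *Adipoq*, *Fabp4* and *Plin1* were well above the background level of 3.59 (the 95th percentile of the signals of 1452 chemosensory receptor genes), as were all 9 adipocyte markers examined. Of 8 plasma and B cell markers 1, *Sdc1*, lay above that level, as did 3 of 7 macrophage and 0 of 6 endothelial markers. Of 7 preadipocyte and fibroblast markers 6 lay above it, with *Dlk1* at a mean of 10.48 in controls and 10.03 in MM-3T3-L1s. By the thresholds given below none of the 7 was called, and 5 differences were below 0 and 2 above. Of the adipocyte markers 8 differed above 0, and 1, *Retn*, was called lower (-0.63, SE 0.23), as were 1.44% of all probe sets. *Mki67* and *Top2a*, markers of dividing cells, were lower on MM.1S replicate 3 (3.88 and 4.22) than on the other 4 arrays (4.72 to 4.92 and 5.43 to 5.73). Of the 12 proliferation markers, *Mcm4*, *Pcna*, *Ccna2*, *Cdk1* and *Birc5* were also lowest on that array (4.99, 9.49, 5.63, 6.89 and 6.74). Only *Mcm5* and *Tk1* were higher on it (4.23 and 5.68) than on the other 4 (3.63 to 3.94 and 5.46 to 5.53).

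With the study's thresholds, an unadjusted p of 0.05 or less from limma's moderated test and a fold change above 1.5, *Aldh1l2* was lower in MM-3T3-L1s, none of the 10 genes was higher and 9 were neither. Among all 22206 probe sets 1.44% were called lower and 0.91% higher by the same rule, 2.35% in all, and among the probe sets above background 2.04% and 0.893%. The differences, 5 above 0 and 5 below, ran from -0.61 to 0.50 on the log2 scale, with a median of -0.050 against 0.014 for all probe sets. Over the 9 genes above the background level the median was -0.16, against -0.025 for all probe sets above it. After Benjamini-Hochberg adjustment over all probe sets, the limma p-values of the 10 genes lay between 0.596 and 0.923, and no probe set on the arrays had an adjusted p below 0.05 (the smallest was 0.166), while 772 higher (3.48%) and 912 lower (4.11%) probe sets had an unadjusted p of 0.05 or less. At that p and any fold change 1 of the 10 genes was higher (*Mthfd2*) and 1 lower (*Aldh1l2*).

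**Figure D1:**
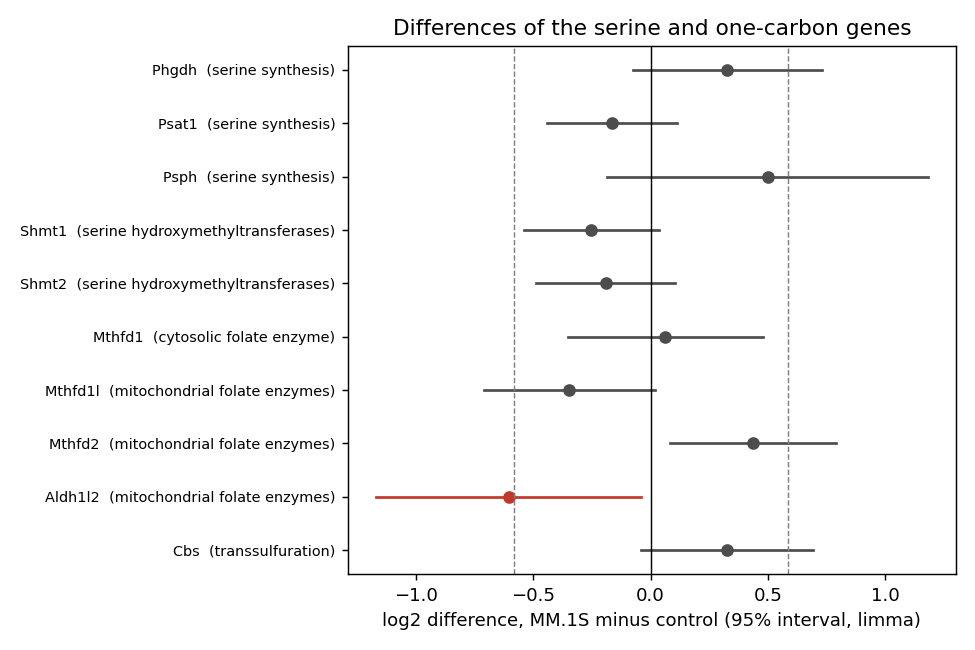
Log2 difference of each gene, MM.1S minus control (n = 3 and n = 2), with the 95% interval of limma's fit as a bar; dashed lines mark a fold change of 1.5 and red marks the gene past the study's thresholds. *Aldh1l2* lies at -0.61 and *Mthfd2* at 0.44 with intervals that leave out 0, and the other 8 intervals hold 0.

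For 8 of the genes the arrays of the 2 groups did not overlap. In 3 genes every MM.1S array lay above both control arrays and in 5 every MM.1S array lay below them. Over all probe sets the shares were 11.9% and 12.2%, and over the 13551 probe sets above the background level they were 10.6% and 17.2%. *Cbs*, 1 of the 3 genes with every MM.1S array above, is below that level and does not belong beside the second pair of shares. Several of these gaps were small. The nearest arrays of the groups were 0.011 log2 units apart for *Phgdh*, 0.035 for *Shmt2*, 0.047 for *Psat1* and 0.056 for *Mthfd1l*, and the widest gap was 0.18, for *Mthfd2*.

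None of the 3 genes of serine synthesis passed the test, and all 3 intervals hold 0. *Phgdh* (chromosome 3, 98313171 to 98339969 in GRCm38.p6) encodes the dehydrogenase that commits 3-phosphoglycerate to the pathway. Its log2 signal was 6.85 and 6.76 on the control arrays and 7.29, 7.24 and 6.86 on the MM.1S arrays. Replicates 1 and 2 of MM.1S stood clearly above the controls, and replicate 3 was level with control replicate 1. The difference was 0.33 (SE 0.16, unadjusted p = 0.0938 from limma), with a 95% interval of -0.08 to 0.73.

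*Psph* encodes the phosphatase that releases free serine in the last step. It was at 7.57 and 7.32 on the control arrays and at 8.25, 8.17 and 7.41 on the MM.1S arrays. As for *Phgdh*, the first 2 MM.1S arrays were high, while replicate 3 fell between the controls, so the groups overlapped. Controls averaged 7.45 ± 0.18 (SD, n = 2), and the MM.1S arrays averaged 7.94 ± 0.46 (SD, n = 3). The difference of 0.50 (SE 0.28, unadjusted p = 0.123 from limma) was the highest of the 10 and did not pass the test, with an interval of -0.18 to 1.18. Without MM.1S replicate 3 it was 0.77 (SE 0.13, unadjusted p = 0.00354 from limma) and passed the study's thresholds. It was 0.35 and 0.38 without MM.1S replicate 1 or 2, under the fold-change threshold. Without control replicate 1 or 2 the difference of *Psph* was 0.62 and 0.37. The spread of *Psph* between the MM.1S arrays was wider than that of 93.9% of probe sets.

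*Psat1*, the aminotransferase between those steps, which takes its nitrogen from glutamate, was at 10.07 and 9.96 in controls and at 9.91, 9.87 and 9.77 in MM-3T3-L1s. All 3 MM.1S arrays were below both controls, by little. The difference was -0.16 (SE 0.11, unadjusted p = 0.199 from limma), and the interval of -0.44 to 0.11 leaves out a change of 1.5-fold in either direction.

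The proximal promoters of the whole set were read for 3 motifs, without regard to the array values. RefSeq windows in GRCm38.p6, 300 bases long and reaching over the start site, were at hand for 9 of the 10 genes (10 windows, with 2 for *Psat1*, and none for *Aldh1l2*). The letters TGATGNAA, the core of the element bound by ATF4 in amino acid response genes, were found on neither strand of any of them and are in 3.97% of all 32851 windows. The letters TGACNNNGC, the core of the antioxidant response element, were in 2 of the 10 windows and in 12.4% of all windows. These 2 were the windows of *Phgdh* and *Psph*, both with the match on the strand opposite to the gene. The E-box CACGTG was in that of *Cbs* alone and in 7.15% of all windows. The match of *Phgdh* begins 53 bases before the start site (chr3:98340014-98340022), and that of *Psph*, read GCGACGTCA along the gene, begins at the fifth base after it. The stretch of *Phgdh* is shown 5′ to 3′ along the gene (minus strand, chr3:98339984-98340052), with the match in capitals, because this is the one match before the start site in a gene of the serine chain.
Phgdh: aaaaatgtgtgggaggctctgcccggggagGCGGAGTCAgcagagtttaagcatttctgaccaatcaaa
A match of letters describes the sequence and says nothing of binding.

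**Figure D2:**
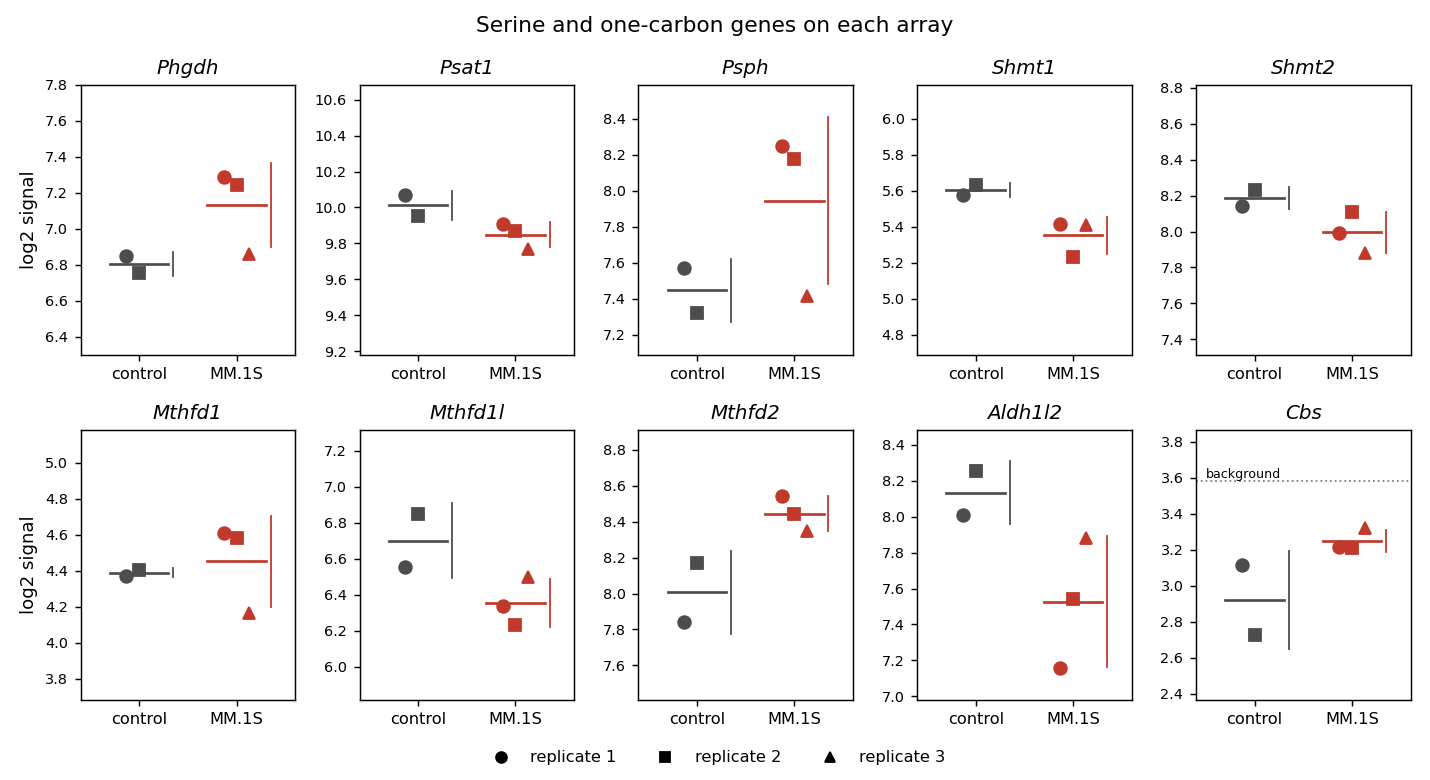
Log2 signal of each gene (vertical axis, each panel with its own range) on the 2 control arrays (grey) and 3 MM.1S arrays (red), with replicates 1, 2 and 3 as circle, square and triangle; horizontal lines are group means and vertical lines the SD. In *Phgdh*, *Psph* and *Mthfd1* the third MM.1S array (6.86, 7.41 and 4.16) lies apart from the first 2, and *Cbs* lies below the dotted background level on every array.

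Neither of the 2 serine hydroxymethyltransferase genes passed the test. *Shmt1*, for the cytosolic enzyme, was at 5.58 and 5.63 in controls and at 5.42, 5.23 and 5.41 in MM-3T3-L1s, a difference of -0.25 (SE 0.12, unadjusted p = 0.0750 from limma). *Shmt2*, for the mitochondrial enzyme that is the main source of one-carbon units in many dividing cells, was at 8.14 and 8.23 in controls and at 7.99, 8.11 and 7.88 in MM-3T3-L1s, a difference of -0.19 (SE 0.12, unadjusted p = 0.163 from limma). Every MM.1S array lay below both control arrays in each gene. The intervals, -0.54 to 0.04 and -0.49 to 0.10, both leave out a fall of 1.5-fold, which is -0.585 on this scale.

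Of the 3 mitochondrial folate enzymes 1 was called lower and 2 were neither. *Aldh1l2* (chromosome 10, 83487447 to 83534146) encodes the mitochondrial formyltetrahydrofolate dehydrogenase, which burns the one-carbon unit to CO2 and yields NADPH. It was at 8.01 and 8.26 on the control arrays and at 7.16, 7.54 and 7.88 on the MM.1S arrays. All 3 MM.1S arrays were below both controls, but they spread over more than the gap between the groups, and replicate 3 was 0.13 below the nearer control. Controls averaged 8.13 ± 0.17 (SD, n = 2), and the MM.1S arrays averaged 7.53 ± 0.36 (SD, n = 3), which is 1.52-fold lower. The difference of -0.61 (SE 0.23) had an unadjusted p of 0.0399 and an adjusted p of 0.649 from limma, and 1.66% of probe sets had a difference as low or lower.

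The call of *Aldh1l2* was at the edge of both thresholds. Its difference stayed below 0 whichever array was left out, from -0.42 without MM.1S replicate 1 to -0.78 without MM.1S replicate 3. The call was lost without control replicate 1 (-0.73), control replicate 2 (-0.48), MM.1S replicate 1 or MM.1S replicate 2 (-0.61), and held without MM.1S replicate 3. The one-way test of the study's methods on the same values gave an unadjusted p of 0.124 and no call for any of the 10 genes, where it called 0.811% of all probe sets lower and 0.468% higher.

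*Mthfd2* encodes the mitochondrial dehydrogenase and cyclohydrolase that is typical of embryonic and dividing cells. It was at 7.84 and 8.17 in controls and at 8.54, 8.44 and 8.35 in MM-3T3-L1s. The 3 MM.1S arrays lay above both controls. The difference was 0.44 (SE 0.14, 95% interval 0.08 to 0.79), a fold change of 1.35, with an unadjusted p of 0.0235 and an adjusted p of 0.596 from limma, so it passed the p threshold and not that of fold change. At this p and any fold change 3.48% of all probe sets were higher. Without control replicate 2 the difference was 0.60 and passed both thresholds. Without control replicate 1 it was 0.28 (unadjusted p = 0.120 from limma) and passed neither, and the p threshold was also missed without MM.1S replicate 1 or 2 and with the methods' test (unadjusted p of 0.0680, 0.0550 and 0.0530).

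*Mthfd1l* encodes the mitochondrial synthetase that sets formate free for the cytosol. It was at 6.55 and 6.85 in controls and at 6.33, 6.23 and 6.50 in MM-3T3-L1s, all below both controls. The difference was -0.35 (SE 0.15, unadjusted p = 0.0584 from limma). It ranged from -0.49 without control replicate 1 to -0.20 without control replicate 2 and was under the fold-change threshold in both.

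*Mthfd1*, for the cytosolic enzyme of 3 activities that takes up formate for purine and thymidylate synthesis, was at 4.37 and 4.41 in controls and at 4.61, 4.58 and 4.16 in MM-3T3-L1s. The MM.1S arrays lay on both sides of the controls, with a difference of 0.06 (SE 0.17, unadjusted p = 0.723 from limma). Replicates 1 and 2 were above the controls and replicate 3 below them. *Cbs*, which joins serine to homocysteine, was below the background level on all 5 arrays, at 3.11 and 2.73 in controls and 3.22, 3.21 and 3.32 in MM-3T3-L1s. Its difference of 0.33 (SE 0.15, unadjusted p = 0.0722 from limma) is one between signals not above background, and it was 0.52 without control replicate 1 and 0.13 without control replicate 2.

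MM.1S replicate 3 was the MM.1S array nearest to the control mean for 5 of the 10 genes, *Phgdh*, *Psph*, *Mthfd1l*, *Mthfd2* and *Aldh1l2*, where it was nearest for 26.7% of all probe sets. Leaving it out moved *Phgdh* to 0.46, *Psph* to 0.77, *Mthfd1* to 0.21, *Mthfd2* to 0.49, *Mthfd1l* to -0.42, *Shmt1* to -0.28 and *Aldh1l2* to -0.78, each farther from 0 than with all arrays. For the genes in which replicate 3 is the nearest array this follows from leaving it out. *Psat1* (-0.12), *Shmt2* (-0.14) and *Cbs* (0.29) came nearer to 0 without it. It is also the array with the lowest *Mki67*, *Top2a*, *Mcm4*, *Pcna*, *Ccna2*, *Cdk1* and *Birc5* and with the highest *Mcm5* and *Tk1*. The part of cell division in these values was not tested. Over all 12 proliferation markers the mean log2 signal was 6.01 and 6.16 in controls and 5.95, 6.06 and 5.74 in MM-3T3-L1s, and none was called, while *Ccna2*, a cyclin of dividing cells, passed the p threshold alone (-0.50, SE 0.17, unadjusted p = 0.0275 from limma) with every MM.1S array below both controls. Fewer dividing cells and less RNA per cell cannot be told apart in such samples.

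**Figure D3:**
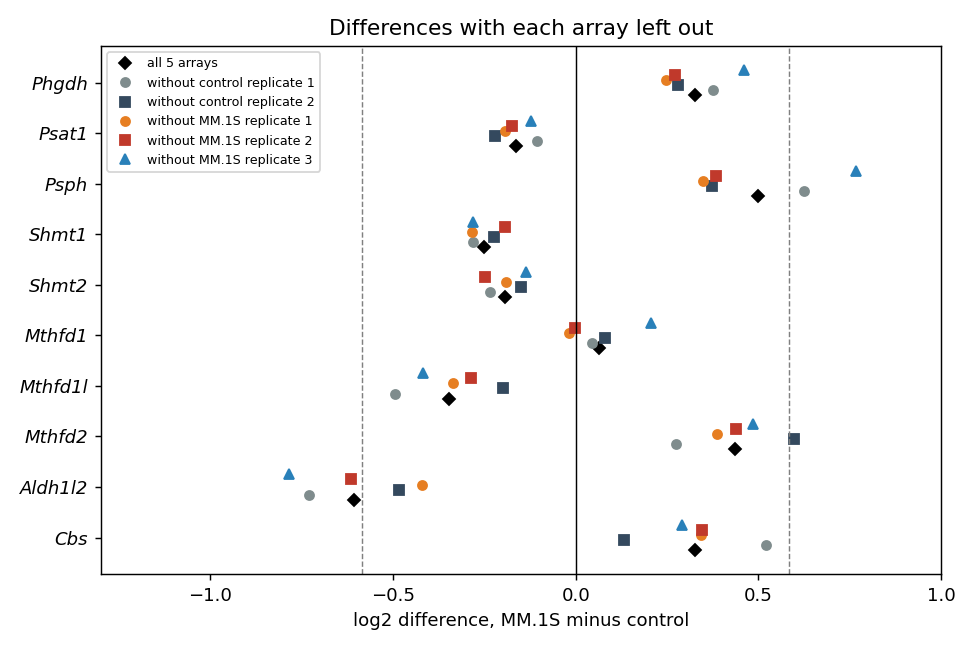
Log2 difference of each gene, MM.1S minus control, with all 5 arrays (black diamonds) and with each array left out in turn (coloured symbols); dashed lines mark a fold change of 1.5. *Psph* runs from 0.35 without MM.1S replicate 1 to 0.77 without MM.1S replicate 3, and *Aldh1l2* runs from -0.42 to -0.78.

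The wider pathway was read from 74 further genes with a named probe set, 64 of them above the background level. Their median difference was -0.069. The call was lower for 3 of the 74, higher for 0 and neither for 71, where 1.44% of all probe sets and 2.04% of those above background were called lower. *Cdo1*, the dioxygenase that commits cysteine to breakdown, was at 7.75 and 7.47 in controls and at 6.67, 6.82 and 6.56 in MM-3T3-L1s, a difference of -0.93 (SE 0.14, unadjusted p = 7.38e-04, adjusted p = 0.337 from limma). It passed whichever array was left out. *Slc1a4*, a membrane carrier of serine and other small neutral amino acids, was at 6.62 and 6.16 in controls and at 5.40, 5.76 and 5.77 in MM-3T3-L1s, a difference of -0.75 (SE 0.20, unadjusted p = 0.00949, adjusted p = 0.539 from limma). Without control replicate 1 it was -0.52 and did not pass.

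*Aldh1l1*, the cytosolic counterpart of *Aldh1l2*, was at 6.35 and 5.79 in controls and at 5.26, 5.69 and 5.46 in MM-3T3-L1s. Its difference of -0.60 (SE 0.21, unadjusted p = 0.0330, adjusted p = 0.626 from limma) was close to that of *Aldh1l2*, and both formyltetrahydrofolate dehydrogenases lay just past the fold-change threshold. All MM.1S arrays were below both controls in each. The call of *Aldh1l1* was lost without control replicate 1 (-0.32), MM.1S replicate 1 (-0.49) or MM.1S replicate 3 (-0.59), and *Aldh1l1* did not pass the methods' test.

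**Figure D4:**
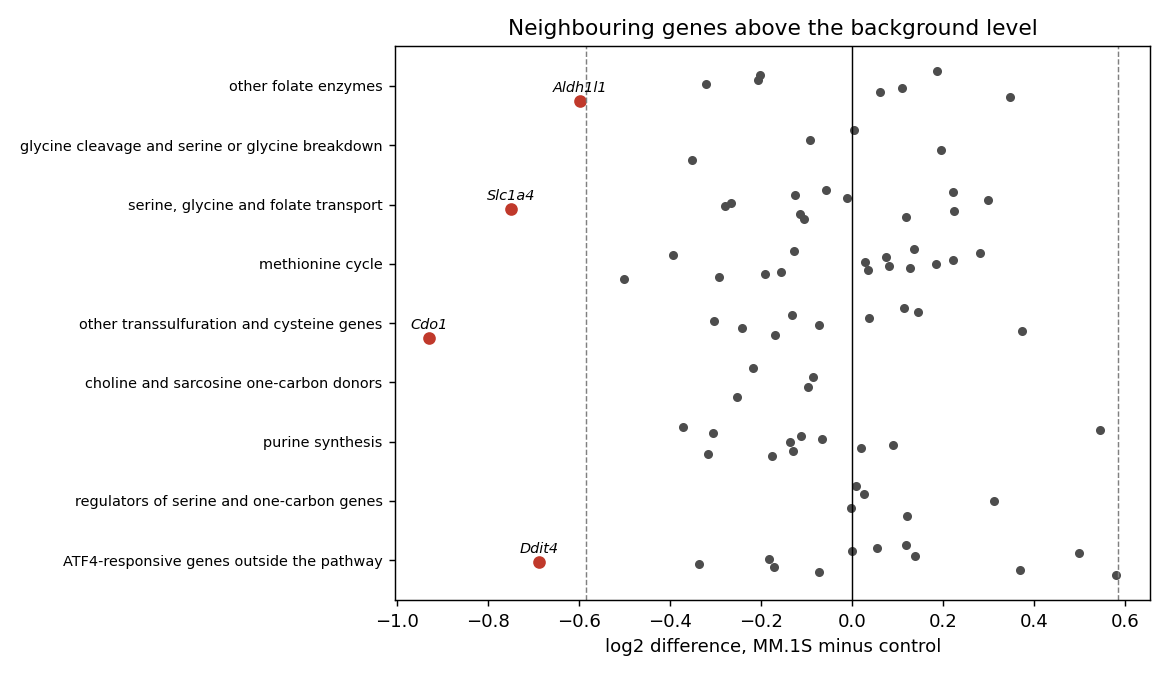
Log2 difference, MM.1S minus control, of the genes of each neighbouring group above the background level (1 point a gene); dashed lines mark a fold change of 1.5 and red points with names are genes past the study's thresholds. The 4 red points, *Cdo1* (-0.93), *Slc1a4* (-0.75), *Ddit4* (-0.69) and *Aldh1l1* (-0.60), all lie on the lower side.

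In the other groups most genes stayed within the thresholds. Among 9 other folate genes *Mthfs*, which returns 5-formyltetrahydrofolate to the active pool, differed by -0.32 (SE 0.13). Of 14 genes of transport, *Slc1a5*, a carrier of glutamine and other neutral amino acids, differed by -0.28 (SE 0.11) beside *Slc1a4*. Among 10 genes of transsulfuration and cysteine, *Cth*, which completes the path from cystathionine to cysteine, was at 6.63 and 6.67 in controls and 7.12, 7.18 and 6.77 in MM-3T3-L1s, a difference of 0.37 (SE 0.16). *Cth* shared the array pattern of *Phgdh*, with MM.1S replicates 1 and 2 high and replicate 3 near the controls.

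None of the 18 genes of the methionine cycle, 7 of glycine cleavage and breakdown, 5 of choline and sarcosine oxidation and 11 of purine synthesis passed. The genes with the smallest p above background in these groups were *Adi1* (-0.50, SE 0.21), of methionine salvage, *Ahcy* (-0.29, SE 0.12), which hydrolyses adenosylhomocysteine, *Amt* (-0.35, SE 0.18) and *Dld* (0.20, SE 0.13), parts of the glycine cleavage system, *Sardh* (-0.22, SE 0.13) and *Aldh7a1* (-0.25, SE 0.25). *Adi1* became a lower call with control replicate 1 left out (-0.76) and with MM.1S replicate 2 left out (-0.62), and was at -0.24 without control replicate 2. In purine synthesis the 2 genes of phosphoribosyl pyrophosphate synthetase, which makes the sugar phosphate on which purines are built, differed in sign. *Prps1* was at 8.88 and 8.86 in controls and 9.55, 9.42 and 9.27 in MM-3T3-L1s (0.55, SE 0.13), and *Prps2* was at 7.37 and 7.44 in controls and 7.00, 7.04 and 7.06 in MM-3T3-L1s (-0.37, SE 0.10). Both had an unadjusted p below the threshold from limma (0.00561 and 0.0124) and a fold change under 1.5. Without MM.1S replicate 3 *Prps1* was at 0.62 and was called higher.

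Serine and one-carbon genes are known targets of ATF4, the transcription factor of the amino acid response. The RNA of *Atf4* itself was at 9.51 and 9.63 in controls and at 9.80, 9.63 and 9.65 in MM-3T3-L1s, a difference of 0.12 (SE 0.12). ATF4 protein and its activity were not measured. *Myc*, another known activator, differed by 0.31 (SE 0.14). Of 13 ATF4-responsive genes outside the pathway 1 passed as lower and 0 as higher, where 1.44% and 0.91% of all probe sets did. The median was 0.056, with 7 differences above 0 and 6 below. At an unadjusted p of 0.05 or less from limma and any fold change 3 were higher and 1 lower, where 3.48% and 4.11% of all probe sets were. *Asns*, asparagine synthetase, differed by 0.58 (SE 0.12, unadjusted p = 0.00376 from limma), just short of the fold-change threshold. It was called higher without control replicate 1 (0.65), MM.1S replicate 1 (0.64) or MM.1S replicate 3 (0.59), and with quantile normalization (0.60). *Slc7a11*, the cystine importer, differed by 0.50 (SE 0.13), and the lower gene, *Ddit4*, a stress-induced inhibitor of mTORC1, by -0.69 (SE 0.27). The call of *Ddit4* held without control replicate 2 (-1.10) and was lost without any other single array, at -0.28 without control replicate 1 and -0.56, -0.80 and -0.70 without an MM.1S array (replicates 2, 1 and 3).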

How the data were processed

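RNA was measured on 5 Clariom S Mouse arrays, 2 control and 3 MM.1S. The deposited log2 values had been made by the authors with Partek and RMA (background correction, normalization across arrays, summary of probes); whether these 5 arrays were normalized alone is not given in the sources used here. The RNA input is 50 ng in the labels and differs in the paper's methods. All 22206 probe sets were tested without a filter. Of these, 19572 had 1 gene symbol, 0 had several and 2634 had none, and listed genes with no named probe set were not analysed here. Where a gene had several probe sets, the one of highest mean signal stood for it. Groups were compared with lmFit and eBayes of limma 3.58.1 in R 4.3.3, with group as the only term (3 residual and 2.79 prior degrees of freedom), two-sided, with Benjamini-Hochberg adjustment over all probe sets; the fit was tested on simulated data. Calls needed a fold change over 1.5 together with an unadjusted p no higher than 0.05, the thresholds of the study's methods, whose one-way test on each probe set was an alternative. The others were an intensity trend with a robust prior, leaving out dim probe sets, quantile normalization, median centring, array weights, the replicate number as a block, fold limits of 1.2 and 2, other background percentiles and leaving out each array. Precision is limited by how few arrays there are, and an exact permutation test of 2 against 3 arrays cannot give a p below 0.1. The members and lists were chosen with earlier results of these data known. Named were all 10 members and, from the companion and regulator lists, genes past the thresholds and the 2 per group with the smallest p above background.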

Additional observations from a re-analysis of the deposited data

How the results depend on the processing

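No more than 1 of the 10 genes was called in either direction under any alternative that was run. The count of lower genes fell from 1 (*Aldh1l2*) to 0 with the methods' test, with quantile normalization and at a fold change above 2, and lay between 0 and 1 with an array left out. The count of higher genes rose from 0 to 1 with array weights and with the replicate block (*Psph*, at 0.62 and 0.77), at a fold change above 1.2 (*Mthfd2*), and lay between 0 and 1 with an array left out. Replicate 3 exists only in the MM.1S group, so the block takes it out of the comparison; the replicate numbers mark no shared culture in the labels, and the deviations of same-numbered arrays correlated at -0.027 and 0.060. With the block the median difference of the 10 genes turned from -0.050 to 0.042, and without dim probe sets, which leaves out *Cbs*, it was -0.16. *Mthfd1* turned from 0.06 to -0.018 without MM.1S replicate 1 and to -0.0013 without MM.1S replicate 2, and reached 0.21 without MM.1S replicate 3, and the other 9 genes kept their sign under each alternative run for them (*Cbs* has no value without dim probe sets). Of the companion genes, the higher count went from 0 to 1 with array weights and with the block (*Prps1*) and to 2 at a fold change above 1.2, and the lower count from 3 to 6 at 1.2 and to 0 at 2. With an array left out these counts lay between 0 and 1 and between 2 and 4. Of the regulator genes, the higher count went from 0 to 1 with quantile normalization and with the block (*Asns*) and to 3 at 1.2, the lower count from 1 to 0 with the methods' test, quantile normalization, array weights and at 2, and both lay between 0 and 1 with an array left out. Over all probe sets the 202 higher and 320 lower calls became 104 and 180 with the methods' test, 771 and 911 at 1.2 and 21 and 54 at 2. They were 121 higher without dim probe sets, and 216 to 352 higher and 301 to 415 lower with an array left out. The effect of the fold limits on the counts follows from their construction, and the cause of the other shifts was not tested. A fit with a lone control array assumes that it varies like the MM.1S arrays. Averaging the probe sets of a gene gave no other value, since each of the 10 genes has 1.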
